A study of Homo sapiens with 6 samples.

Results

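Antisense transcripts are RNAs made from the strand opposite to another gene, and the better expressed ones were examined here. They were chosen by their mean estimated count: a transcript was taken where the deposited annotation gave it the biotype antisense and the count averaged at least 300 over the 6 libraries. This left 98 transcripts of 5415 antisense rows, in a table of 60504 rows. Their mean counts ran from 300.8 to 3318 with a median of 495.3, and 20 averaged over 1000. The rule used the level and not the difference between groups, but a transcript that passes through 1 group alone must differ between groups. The mean was under 300 in the control libraries for 15 transcripts and under 300 in the HDAC8 libraries for 11, which left 72 at or over 300 in both.

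An antisense RNA can share exons with the gene across from it, start from the same promoter region and run the other way, or lie inside an intron. Some of them act on the neighboring gene, some carry small nucleolar RNAs (snoRNAs) in their introns, and many are removed quickly by the nuclear RNA exosome. For most, no function is known.

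The cells were WM164, an established melanoma line that carries BRAFV600E in both groups. Total RNA was sequenced from 3 libraries of cells that carried an empty expression vector (EV) and 3 libraries of cells that expressed HDAC8, a class I histone deacetylase. Cells were transfected and kept under hygromycin, and nothing in the sources used here says whether the replicate numbers mark separate cultures, so p-values measure the spread between these libraries. The series asked which genes differ in expression between HDAC8 and EV cells.

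Library totals ran from 34741092 to 42041453 estimated counts, of which the 98 transcripts took 0.162% to 0.229%. The HDAC8 transcript itself averaged 422.3 normalized counts in EV libraries and 468.0 in libraries labelled HDAC8 (log2 difference 0.15, DESeq2 adjusted p = 0.856), so this transcript does not separate the labelled groups. Of 7 melanocyte markers 4 did. MLANA fell by 4.84, from 8665 to 303.1, TYR by 1.60, DCT by 1.08 and PMEL by 0.86 (log2), and all 4 were called. MITF (log2 -0.20, adjusted p = 0.544) and SOX10 (log2 -0.33, adjusted p = 0.211) were not called, and TYRP1 averaged 39.1 and 5.81. Of the markers of other cells, DCN was at 0 and PTPRC averaged at most 0.855. The means in EV and HDAC8 libraries were 100.8 and 36.4 for COL1A1, 43.8 and 15.5 for KRT5, 11.5 and 8.35 for KRT14, 26.0 and 8.26 for PECAM1 and 109.7 and 142.8 for VWF. CD3E was at 0 in EV libraries and averaged 73.3 in HDAC8 libraries. HDAC8 1 stood apart from the other 5 libraries, with 4.46% mitochondrial counts against 7.63% to 12.8% and 0.0937% snoRNA counts against 0.0172% to 0.0318%. Results that moved with HDAC8 1 are also given without it, for some groups of transcripts as a range or a median.

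Most of the antisense transcripts, 71 of the 98, had a log2 change under 0.58 in size. A transcript was called where the DESeq2 adjusted p was under 0.05 and the log2 fold change at least 0.58 in size. Of the 97 transcripts with an adjusted p, 6 rose and 4 fell in the HDAC8 libraries (10.3%). Over all 21021 genes tested 11.0% were called, 5.57% higher and 5.44% lower, so the antisense share was near that of all genes. edgeR called 6 higher and 4 lower, against 8.12% of all genes. The DESeq2 share was 15.9% over all 10287 rows that averaged at least 300 counts, 15.8% over protein-coding rows and 20.8% over lincRNA rows of that level, and 2.95% over the antisense rows under 300. Among the 10 called, the 4 with the largest rise (PHKA2-AS1, AL365181.3, AC147651.3 and AC104958.2) had an EV mean under 300. These 4 passed the rule through the HDAC8 libraries, so the rule itself favored a rise in them. Another 1 had an HDAC8 mean under 300. Of the 72 members at or over 300 in both groups 5 were called. The 72 leave out transcripts that are under 300 in 1 group, and the 15.9% over all rows does not. These shares therefore cannot be set against each other. The median log2 fold change was 0.05 over the 98, and 0.00 both over all genes tested and over genes of at least 300 counts. Without HDAC8 1 it was -0.04 over the 98, -0.07 over all genes and 0.01 over genes of at least 300 counts. The groups did not overlap for 29 transcripts (29.6%), against 24.0% of all genes and 38.1% of genes of at least 300 counts.

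**Figure D1:**
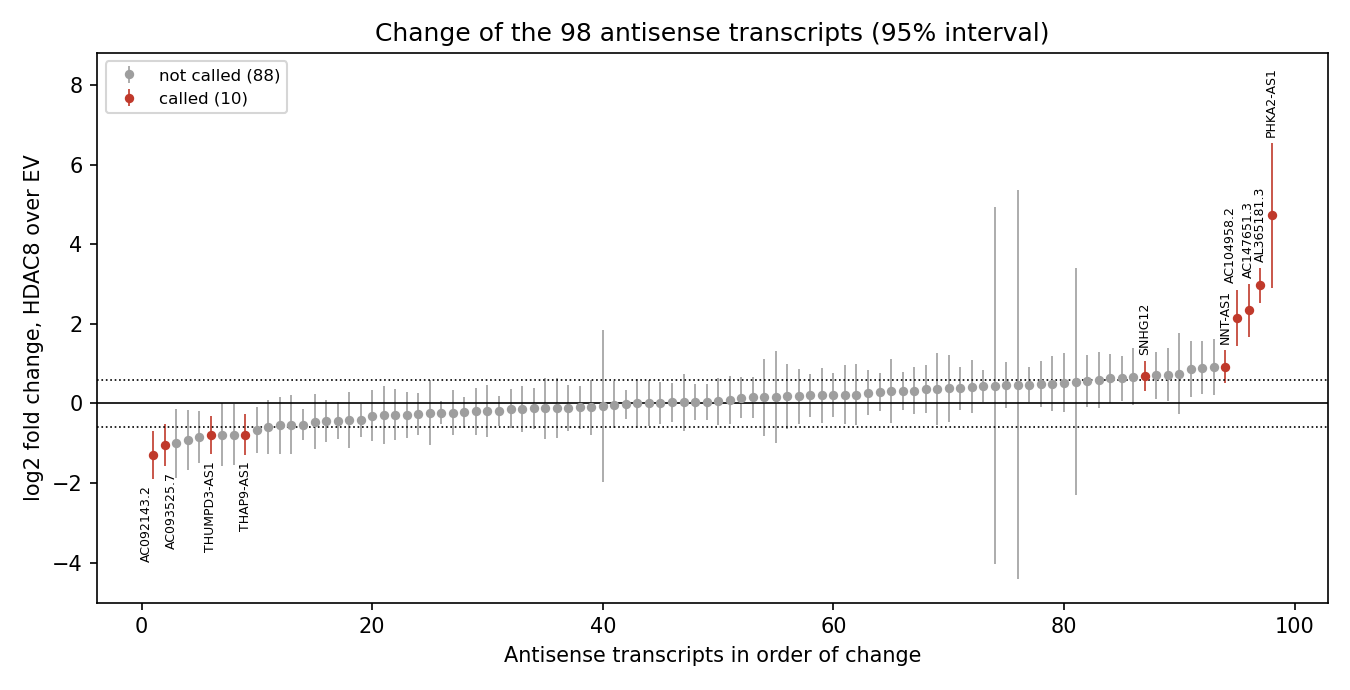
log2 fold change of HDAC8 over EV for each of the 98 antisense transcripts, in rising order on the x axis, with the 95% interval from DESeq2 as bars. Dotted lines mark 0.58 either way. The 10 called transcripts are red, and PHKA2-AS1 at 4.72 and AC092143.2 at -1.30 are the ends of the order.

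PHKA2-AS1 (ENSG00000237836) lies across from PHKA2, the gene for an alpha regulatory subunit of phosphorylase kinase, which starts glycogen breakdown. The normalized count was 49.3, 50.4 and 3.94 in EV 1 to 3 and 1171, 600.2 and 968.1 in HDAC8 1 to 3. EV 3 was near the floor of 3 reads, and every HDAC8 library was above every EV library. The rise was 4.72 on the log2 scale (SE 0.92, adjusted p = 1.04e-05). PHKA2 itself rose by 2.20 (SE 0.20, adjusted p = 4.57e-26), from 1151 ± 232.8 to 5292 ± 994.0 normalized counts (SD, n = 3). The transcript spans chrX:18890296-18894974 on the plus strand (GRCh38, GENCODE 44), and 82.7% of its exon bases lie on exons of the opposite strand. Whether counting used strand is not stated in the sources used here. It is therefore not known whether reads of PHKA2-AS1 and of PHKA2 were told apart over those bases. The ratio of antisense to sense rose by 3.03 on the log2 scale, a call that several settings ended. Its log2 value was -7.49 in EV 3, against -4.73 and -4.59 in EV 1 and EV 2.

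AL365181.3 rose while the gene it overlaps fell. Among called members it was the only one with a called partner of the opposite sign. Each was paired with the coding gene of largest exon overlap, or with an overlapping gene where no exon base was shared. Its normalized count was 212.9, 181.2 and 193.1 in EV libraries and 1550, 1482 and 1557 in HDAC8 libraries. The groups were far apart and each was narrow. The rise was 2.97 on the log2 scale (SE 0.22, adjusted p = 1.23e-37), or 7.82-fold. It lies at chr1:156641666-156644887 on the minus strand, inside BCAN, which encodes brevican, a proteoglycan of the brain extracellular matrix. BCAN was at 3963, 5609 and 3780 in EV libraries and 2000, 1651 and 1823 in HDAC8 libraries. BCAN fell by 1.29 (SE 0.19, adjusted p = 5.99e-10) and its groups did not overlap. Of the exon bases of AL365181.3, 5.03% lie on exons of the opposite strand.

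AC147651.3, now named PRKAR1B-AS1, rose together with PRKAR1B, a regulatory subunit of protein kinase A. The antisense count was 96.5, 193.3 and 172.4 in EV libraries and 711.4, 695.4 and 931.1 in HDAC8 libraries. The rise was 2.34 (SE 0.34, adjusted p = 2.68e-10), with no overlap between groups. PRKAR1B was at 139.5, 275.5 and 157.6 in EV libraries and at 950.0, 826.5 and 864.6 in HDAC8 libraries, a rise of 2.20 (SE 0.32, adjusted p = 3.59e-10). No exon base of PRKAR1B-AS1 (chr7:602792-608482, plus strand) lies on an exon of the opposite strand, so the 2 counts share no annotated exon sequence. Per kilobase of annotated exon, the antisense level was 387% of that of PRKAR1B.

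AC104958.2 (chr8:120812219-120813359, plus strand) lies in SNTB1, which encodes a syntrophin of the dystrophin complex. It was at 118.5, 96.2 and 115.3 in EV libraries and at 369.4, 584.8 and 509.6 in HDAC8 libraries. The rise was 2.15 (SE 0.36, adjusted p = 1.28e-07). SNTB1 was higher by 0.57 (adjusted p = 6.22e-04), just under the fold needed for a call. The exon overlap with the opposite strand was 38.3%. AC104958.2 had the lowest mean count of the 98, 300.8, followed by ATP6V0E2-AS1 at 303.6 (log2 0.38). Just under the limit lay HOXA-AS2 at 295.4 (log2 0.17) and AL021707.5 at 292.6 (log2 0.26).

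Of these 4, PHKA2-AS1 and PRKAR1B-AS1 have an entry in the RefSeq promoter table, from 250 bases before to 50 bases after the start (GRCh38.p14). They are shown because both transcripts rose with the gene across from them. PHKA2-AS1 is at chrX:18890046-18890345 and the first start of PRKAR1B-AS1 at chr7:602595-602894, both on the plus strand. Capitals mark the GC box GGGCGG on either strand.

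PHKA2-AS1: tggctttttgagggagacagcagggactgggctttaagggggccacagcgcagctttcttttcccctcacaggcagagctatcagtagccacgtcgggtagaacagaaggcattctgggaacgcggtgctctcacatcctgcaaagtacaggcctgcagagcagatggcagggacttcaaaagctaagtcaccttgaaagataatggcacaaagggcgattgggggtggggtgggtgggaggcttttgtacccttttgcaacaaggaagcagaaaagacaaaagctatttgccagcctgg
PRKAR1B-AS1: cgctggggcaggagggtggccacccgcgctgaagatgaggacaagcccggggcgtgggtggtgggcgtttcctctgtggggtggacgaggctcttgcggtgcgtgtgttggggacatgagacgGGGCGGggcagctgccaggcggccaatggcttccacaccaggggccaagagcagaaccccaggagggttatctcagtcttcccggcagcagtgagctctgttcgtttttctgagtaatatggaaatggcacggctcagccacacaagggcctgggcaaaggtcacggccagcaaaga

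The PHKA2-AS1 window holds none of the motifs searched on both strands: the GC box, the AP-1 site TGANTCA, the E-box CACGTG, the TEAD site GGAATG and the TATA box TATAAA. Its GC content was 53.3%, against 63.3% in the PRKAR1B-AS1 window shown. RefSeq gives PRKAR1B-AS1 another start, with the window chr7:603148-603447, a GC content of 54.7%, 2 matches to the TEAD site and none to the GC box. Over the 57 members with a RefSeq entry (72 windows), the median GC content was 63.5%, against 58.7% over all 35116 promoters. The GC box was in 56.9% of the member windows and 45.0% of all promoters, and the AP-1 site in 6.94% and 7.71%. The E-box was in 9.72% against 7.26%, the TEAD site in 18.1% against 14.0% and the TATA box in 8.33% against 11.5%. These are letter matches and say nothing of binding.

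NNT-AS1 and SNHG12 rose less. NNT-AS1 starts 538 bases from NNT, a mitochondrial transhydrogenase that makes NADPH, and runs the other way. It was at 1005, 797.6 and 856.1 in EV libraries and at 1446, 1939 and 1636 in HDAC8 libraries. The rise was 0.92 (SE 0.21, adjusted p = 2.77e-04). NNT differed by 0.32 (SE 0.15, adjusted p = 0.145). SNHG12, which carries snoRNAs in its introns, was at 2486, 2205 and 2707 in EV libraries and at 5009, 3448 and 3486 in HDAC8 libraries. Its rise was 0.69 (SE 0.19, adjusted p = 0.00328), and HDAC8 1 was the highest library. Without HDAC8 1 the value was 0.49 (adjusted p = 0.00972), below the fold needed for a call. TRNAU1AP, a selenocysteine tRNA factor across from SNHG12, differed by 0.06 (adjusted p = 0.957).

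The SNHG12 promoter window (chr1:28581824-28582123, minus strand, GRCh38.p14) is shown because SNHG12 is the called snoRNA host and has the highest level per kilobase among called members. Capitals mark GC boxes and 1 TEAD-site match.

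SNHG12: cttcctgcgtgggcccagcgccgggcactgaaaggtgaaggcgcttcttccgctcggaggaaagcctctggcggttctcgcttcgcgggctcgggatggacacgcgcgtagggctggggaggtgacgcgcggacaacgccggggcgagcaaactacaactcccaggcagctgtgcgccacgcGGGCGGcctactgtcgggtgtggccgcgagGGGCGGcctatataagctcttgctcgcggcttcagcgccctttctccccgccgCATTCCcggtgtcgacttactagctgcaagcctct

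The other members with a snoRNA gene annotated within them on the same strand were ZFAS1, SNHG7 and TMEM161B-AS1, and they differed in direction. SNHG22 was not counted among them. ZFAS1 was at 3663, 3273 and 3510 in EV libraries and at 3042, 2884 and 2983 in HDAC8 libraries (log2 -0.23, adjusted p = 0.369). SNHG7 was at 596.7, 853.6 and 791.1 in EV libraries and at 1839, 785.5 and 837.4 in HDAC8 libraries, with HDAC8 1 far above the other libraries. Its log2 value was 0.63 (adjusted p = 0.206), and 0.12 (adjusted p = 0.871) without HDAC8 1. TMEM161B-AS1 had a log2 value of 0.58 (adjusted p = 0.347), and 0.28 without HDAC8 1. With SNHG12, the median of these 4 hosts was 0.60, and 0.20 without HDAC8 1, the library with the high snoRNA share. The 1 call among the 4, SNHG12, was lost without that library, beside the 11.0% called over all genes.

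**Figure D2:**
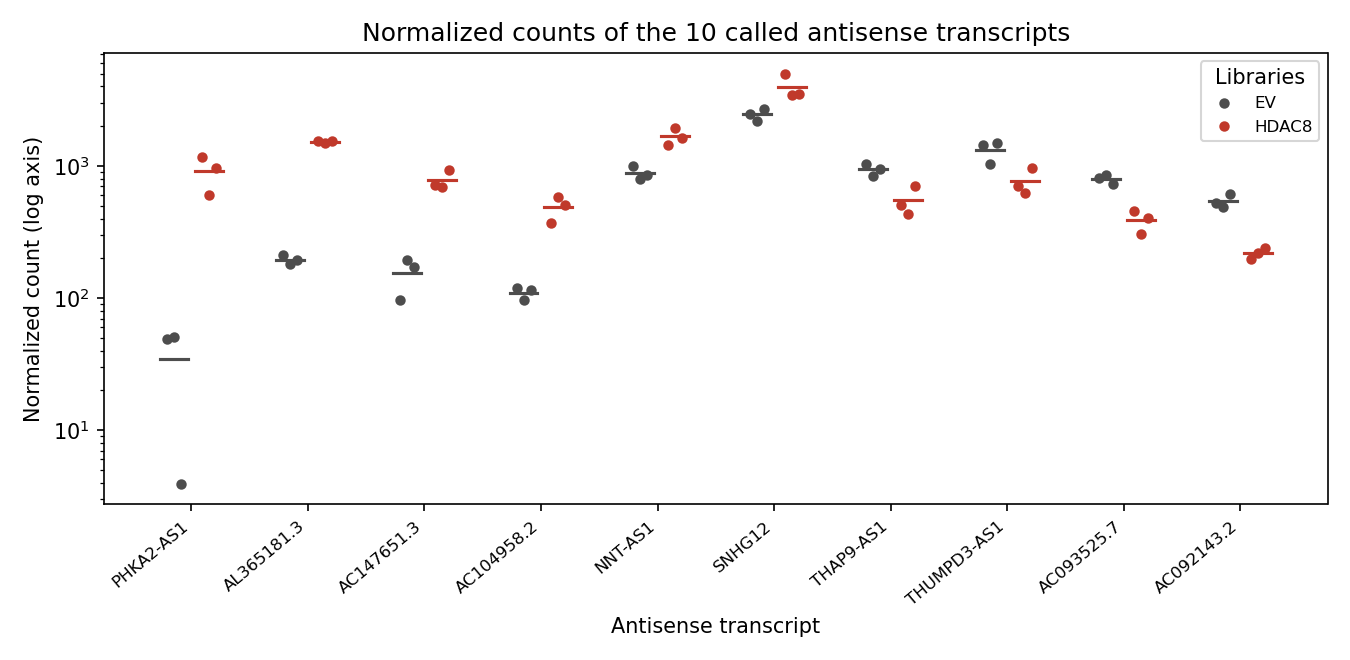
Normalized counts on a log axis for the 10 called antisense transcripts, with the 3 EV libraries in gray, the 3 HDAC8 libraries in red and bars at the group means. In each of the 10 the groups do not overlap, and EV 3 lies far below the other EV libraries for PHKA2-AS1.

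Of the 4 transcripts that fell, AC092143.2 was under the limit of 300 in the HDAC8 mean and the others were at or over it in both groups. AC092143.2 lies across MC1R, the melanocortin receptor of the pigment cell, and TUBB3. It was at 523.3, 489.4 and 608.8 in EV libraries and 199.2, 219.2 and 239.6 in HDAC8 libraries, and fell by 1.30 (SE 0.31, adjusted p = 4.43e-04). Of its exon bases, 91.3% lie on exons of the opposite strand, the largest share among called members. Whether reads of the opposite strands were told apart over those bases is not known. The coding locus AC092143.1 at the same place fell by 2.05 (SE 0.35, adjusted p = 3.27e-07), from 1121 ± 262.8 to 270.8 ± 145.6 (SD, n = 3). MC1R differed by -0.65 (adjusted p = 0.0742) and TUBB3 by -0.20 (adjusted p = 0.596). AC093525.7, across from PDPK1, the kinase that phosphorylates AKT, was at 814.8, 856.4 and 733.9 in EV libraries and 458.3, 306.2 and 401.8 in HDAC8 libraries. It fell by 1.04 (SE 0.27, adjusted p = 0.00187), while PDPK1 differed by 0.02 (adjusted p = 0.979).

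THUMPD3-AS1 was at 1439, 1042 and 1481 in EV libraries and 708.0, 619.6 and 960.5 in HDAC8 libraries. It fell by 0.79 (SE 0.25, adjusted p = 0.0153), while THUMPD3, which methylates tRNA, differed by -0.13 (adjusted p = 0.779). SETD5, another coding gene that THUMPD3-AS1 overlaps, differed by -0.33 (adjusted p = 0.1). Every HDAC8 library was below every EV library for SETD5, which was not called. THAP9-AS1 starts 276 bases from THAP9, a gene of transposase origin, and runs the other way. It was at 1038, 844.3 and 944.7 in EV libraries and 510.5, 436.3 and 703.5 in HDAC8 libraries. It fell by 0.78 (SE 0.26, adjusted p = 0.0284), and THAP9 differed by -0.51 (adjusted p = 0.533). Single libraries ended both calls. THUMPD3-AS1 was -0.73, -0.71 and -0.66 without EV 1, EV 3 and HDAC8 2, and THAP9-AS1 was -0.71, -0.85, -0.78 and -0.63 without EV 1, EV 2, EV 3 and HDAC8 2, none of them called.

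The 88 transcripts not called had log2 values from -1.0 to 0.91, and 16 of them had an unadjusted p under 0.05. For 49 of the 88, the 95% interval lay within a 2-fold change either way, so for the others a 2-fold change was not excluded at this depth. Some lay just short of the threshold, and were picked after their values were seen. ARRDC1-AS1 was at 238.0, 216.7 and 216.7 in EV libraries and 512.2, 284.7 and 467.2 in HDAC8 libraries (log2 0.91, adjusted p = 0.0711). AP003352.1, now RPL30-AS1, had a log2 value of 0.90 (adjusted p = 0.0533).

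Among antisense RNAs studied elsewhere, 6 of a list of 24 were members and 1 was called, THAP9-AS1. The share called was 11.0% over all genes and 15.9% over all rows of at least 300 counts. FGD5-AS1 was at 3192, 3237 and 3359 in EV libraries and 1786, 2921 and 2080 in HDAC8 libraries (log2 -0.53, adjusted p = 0.0522). HAGLR, which lies in the HOXD cluster, was at 401.6, 535.1 and 511.3 in EV libraries and 277.9, 195.6 and 337.6 in HDAC8 libraries (log2 -0.84, adjusted p = 0.0834). The groups did not overlap for either. SLC16A1-AS1 had a log2 value of -0.43 (adjusted p = 0.254) and TTN-AS1 one of 0.04 (adjusted p = 0.963), beside ZFAS1.

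Per kilobase of annotated exon the highest of the 98 were AL355075.4, AC125611.3, AC093484.3, AC022966.1 and SNHG12, at 2666, 1755, 1047, 989.8 and 755.6 normalized counts per kilobase. Of the 5, SNHG12 was called, beside 15.9% of all rows of at least 300 counts. Exon overlap with the opposite strand was 100% for AC022966.1, across from TIMP2, and for AC093484.3, across from UBB. It was 97.9% for AC125611.3, across from TUBA1C, 11.1% for AL355075.4, across from PARP2, and 0.188% for SNHG12. The log2 values of AC022966.1 and AC125611.3 were -0.55 (adjusted p = 0.396) and 0.27 (adjusted p = 0.678).

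Position relative to the gene across was known for 97 members. All 97 overlapped a coding gene on the opposite strand, and the median share of exon bases on opposite exons was 18.1%. The 7 members with none on opposite exons had a median log2 value of -0.03 (-0.50 without HDAC8 1), and AC147651.3 alone was called. Of the 73 with a share above 0 and under 50%, 4 rose and 3 fell, with a median of 0.03. Of the 17 with 50% or more, 1 rose and 1 fell, with a median of 0.18. For 26 members a coding gene started within 1000 bases on the other strand, running the other way, and of these 1 rose and 2 fell (median -0.04). Of the other 71, 5 rose and 2 fell (median 0.14, and -0.07 without HDAC8 1). The shares called in these last 4 classes were 9.59%, 11.8%, 11.5% and 9.86%. They were near the 11.0% of all genes and under the 15.9% of all rows of at least 300 counts.

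The symbols of 42 members name a sense gene. PHKA2-AS1 and PHKA2 was the 1 pair with both called. In 3 pairs only the antisense transcript was called and in 3 only the sense gene, MMP25 (log2 1.54), DLGAP1 (-1.13) and RASSF8 (-0.77). The transcripts across from those, MMP25-AS1, DLGAP1-AS2 and RASSF8-AS1, had log2 values of -0.28, -0.03 and -0.10. Over all genes tested 11.0% were called. Both had the same sign in 30 of 42 pairs, a count with no other pairs set beside it. Across the 42 pairs the log2 values had a Pearson correlation of 0.54, and of 0.28 without PHKA2. The pairs share their libraries and, where exons overlap, may share reads. Per kilobase, the antisense level was a median of 34.2% of the sense level over 41 pairs, and above it in 12.

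The ratio of antisense to sense was compared in each library with limma on log2 values with a pseudocount of 1. Over 552 pairs of all antisense rows, 0.543% were called at an adjusted p under 0.05. Of the 42 pairs, PHKA2-AS1 was called (3.03, SE 0.57, 95% interval 1.81 to 4.25, adjusted p = 0.0273). PHKA2-AS1 passed the count limit through the HDAC8 libraries, so the rule favored a rise of its ratio. The call was lost with a pseudocount of 0.5, in limma without a trend and with a replicate block. It was also lost when EV 1, EV 2, HDAC8 2 or HDAC8 3 was left out. The pair left the test with a minimum of 10 counts in each library. No ratio was called lower, and 11 of the 42 had an unadjusted p under 0.05 in either direction. NNT-AS1 to NNT differed by 0.59 (95% interval 0.14 to 1.03, adjusted p = 0.371), and THUMPD3-AS1 to THUMPD3 by -0.67 (95% interval -1.15 to -0.19, adjusted p = 0.366).

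Symbols miss partners of transcripts named by clone, so each antisense row was also paired with the opposite coding gene of largest exon overlap. Where no exon base was shared, the partner was a coding gene whose span overlapped, as for LUCAT1 and AC147651.3. This pairing was chosen after the data were seen. Of 2339 such pairs 0.385% were called, and 95 held a member. Of the 95, AL365181.3 to BCAN rose by 4.23 (SE 0.25, 95% interval 3.69 to 4.77, adjusted p = 2.85e-07) and PHKA2-AS1 to PHKA2 was called again (adjusted p = 0.0358). AL365181.3 and PHKA2-AS1 both passed the count limit through the HDAC8 libraries, so the rule favored a rise of both ratios. LUCAT1 to ADGRV1 fell by 2.36 (SE 0.40, 95% interval -3.22 to -1.49, adjusted p = 0.0204). LUCAT1, a stress-induced RNA, was at 332.4, 204.5 and 315.2 in EV libraries and 342.9, 300.1 and 333.2 in HDAC8 libraries. ADGRV1, an adhesion receptor, rose from 63.3 ± 6.50 to 388.2 ± 81.8 (SD, n = 3, log2 2.62). AC147651.3 to PRKAR1B differed by 0.12 (95% interval -0.56 to 0.79, adjusted p = 0.951). AC104958.2 to SNTB1 differed by 1.55 (95% interval 0.79 to 2.31, adjusted p = 0.105).

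Of 132 coding genes that overlap the 98 or start within 1000 bases on the other strand, 11 rose and 7 fell. That is 14.1% of the 128 with an adjusted p, against 11.0% of all genes and 15.8% of protein-coding rows of at least 300 counts, so it was near the background. SNHG22 lies across from MYO5B, a myosin motor of vesicle transport, which was at 95.4, 38.3 and 28.6 in EV libraries and 627.6, 835.7 and 617.4 in HDAC8 libraries (log2 3.68, adjusted p = 1.45e-15). SNHG22 was at 122.7, 263.4 and 288.6 in EV libraries and 694.3, 156.7 and 282.0 in HDAC8 libraries, with overlapping groups. Its log2 value was 0.75 (adjusted p = 0.423), and -0.04 (adjusted p = 0.983) without HDAC8 1.

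**Figure D3:**
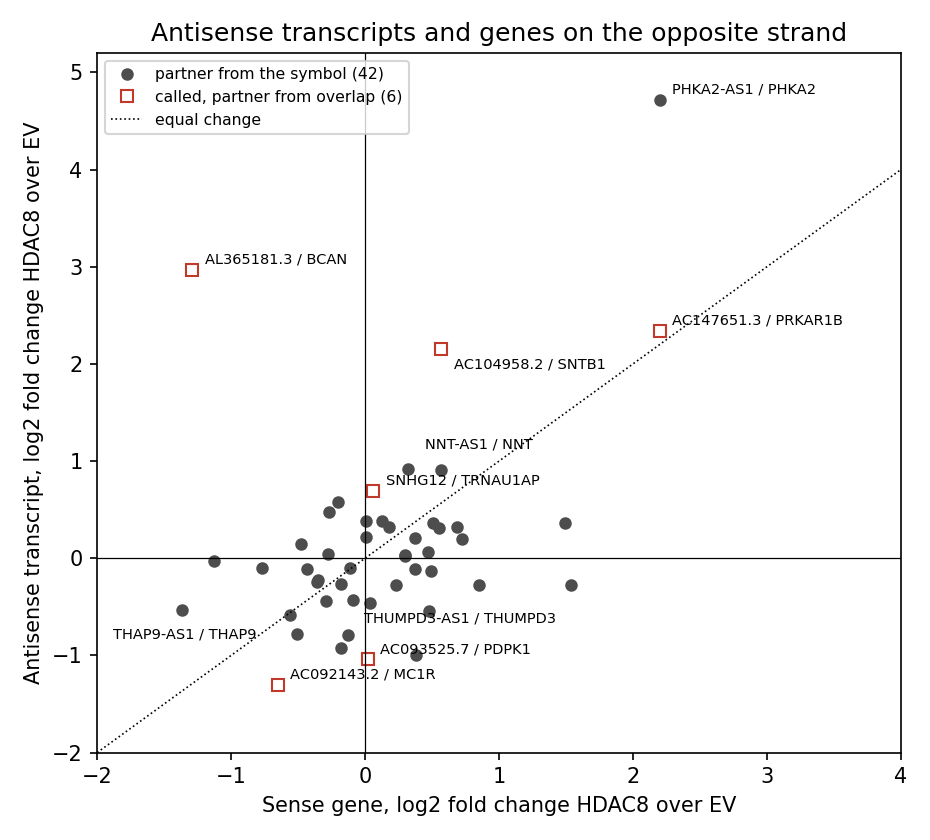
log2 fold change of the antisense transcript (y axis) against that of the sense gene (x axis), HDAC8 over EV. Gray points are the 42 pairs named by symbol, and the dotted line marks equal change. Red squares are the other 6 called transcripts with the opposite coding gene of largest exon overlap, or an overlapping gene where no exon base is shared. AL365181.3 is high at 2.97 while BCAN is at -1.29, and PRKAR1B-AS1 (AC147651.3) lies near the line.

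Part of the spread among the antisense transcripts lay in HDAC8 1. It was the highest of the 6 libraries for 37 of the 98 (37.8%), against 24.7% of all genes of at least 300 counts. In 13 of the 98 (13.3%) it was at least 1.5 times every other library, against 3.24% of genes of that level, and the other 5 libraries were so in 0 or 1 of the 98. These 13 were MATN1-AS1, AC011603.2, AC125611.3, AC026471.1, AL355075.4, GSN-AS1, SNHG7, ATP6V0E2-AS1, AL049840.1, SNHG22, AC112907.3, AL731571.1 and SLFNL1-AS1, and none was called. Their log2 values ran from 0.15 to 0.75 with all libraries and from -2.17 to 0.28 without HDAC8 1, negative in 10 of the 13. AL355075.4 was at 3272 in HDAC8 1 and from 1037 to 1994 in the others. HDAC8 1 is also the library with the high snoRNA share and low mitochondrial share, and the part of these in the antisense values was not tested.

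Without HDAC8 1, 5 members rose and 9 fell, against 5.34% and 6.65% of all genes. Of the 10 calls 9 remained, and AL355075.4, AL355388.2, SH3BP5-AS1, TNFRSF14-AS1 and VPS9D1-AS1 were called as well, all lower. SH3BP5-AS1 was at 1237, 933.9 and 1378 in EV libraries and 1095, 244.8 and 536.9 in HDAC8 libraries. Its log2 value was -0.92 (adjusted p = 0.101) with all libraries and -1.60 (adjusted p = 1.37e-05) without HDAC8 1.

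**Figure D4:**
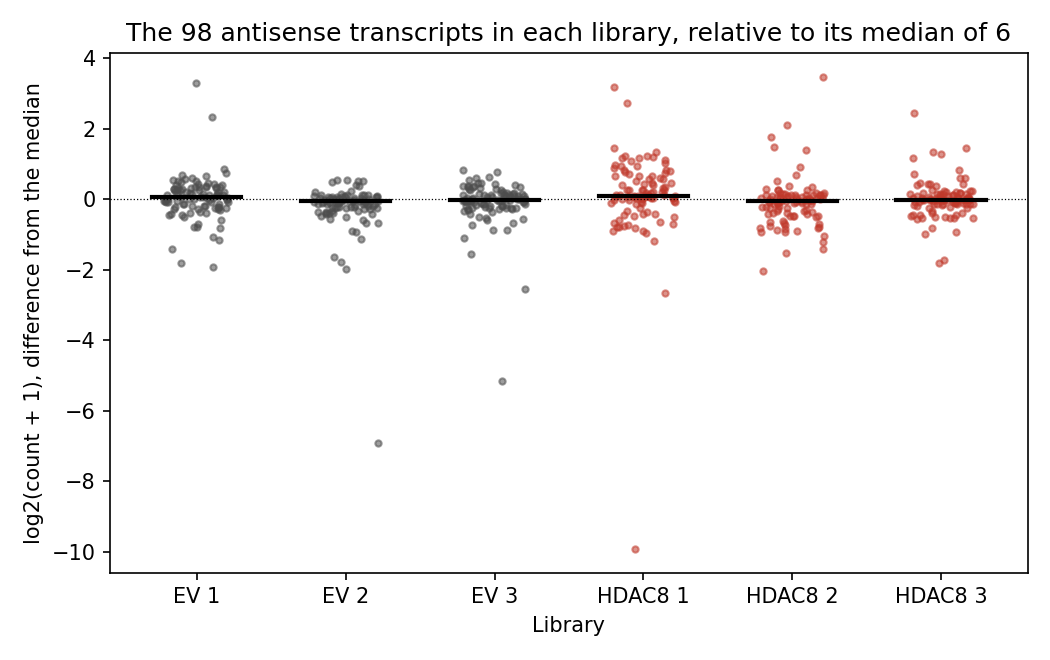
Each point is 1 of the 98 antisense transcripts in 1 library, as log2(count + 1) less its median over the 6 libraries. Black bars mark the median over transcripts, which was highest in HDAC8 1 (0.11) and lowest in EV 2 (-0.06).

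A few members varied more within groups than between them, and were picked for it. AL139099.1, whose exons lie wholly on exons of MGAT2, was at 1312, 765.8 and 1223 in EV libraries and 0, 4227 and 278.8 in HDAC8 libraries. AC093484.3 was at 1194, 0 and 19.7 in EV libraries and 53.0, 1357 and 271.1 in HDAC8 libraries. Both have all their exon bases on opposite exons. The coefficient of variation was over 50% in both groups for AC093484.3, AP000879.1 and AC011603.2. AC011603.2 is the member DESeq2 gave no adjusted p. Over the 98, the median coefficient of variation was 16.4% in EV and 23.3% in HDAC8 libraries, against 12.4% and 16.6% for genes of at least 300 counts.

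The nuclear exosome and its adaptors, which degrade many antisense RNAs, were described from a list of 21 genes. Of these DESeq2 called 1 higher, TENT4B, a poly(A) polymerase that tags RNAs for decay, where it called 11.0% of all genes and 15.9% of rows of at least 300 counts. TENT4B was at 1049, 982.5 and 906.3 in EV libraries and 1478, 2602 and 2045 in HDAC8 libraries (log2 1.06, SE 0.23, adjusted p = 8.73e-05). DESeq2 called none lower, and 5 of the 21 had an unadjusted p under 0.05 in either direction. edgeR, which called 8.12% of all genes, and limma-voom, which called 7.94%, each called 1 of the 21. ZCCHC8, a subunit of the NEXT adaptor, differed by -0.57 (adjusted p = 0.00946), just under the fold needed, and EXOSC10, a catalytic subunit, by 0.01 (adjusted p = 0.986). The median of the list was -0.03.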

How the data were processed

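Per the labels, total RNA of 3 EV and 3 HDAC8 WM164 libraries was sequenced, and the authors trimmed reads with Trimmomatic, aligned them with STAR and estimated counts with RSEM. The authors deposited expected counts per gene, not normalized, with a symbol and biotype. The genome build, annotation release and strand setting are not given in the sources used here. A deposited table of the authors' own comparison (fold changes and p-values) was not used.

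Expected counts were rounded to whole numbers. Genes with a total of at least 10 entered DESeq2 1.42.0 (R 4.3.3), fitted to all 6 libraries with group alone. Values per library are counts divided by DESeq2 size factors. Alternatives used edgeR 4.0.16, limma 3.58.1, other scalings and filters, a replicate block and leaving out each library. Ratios of antisense to sense were tested with limma over all pairs, adjusted by Benjamini-Hochberg. Each procedure was tested on simulated data. Positions, names and exon lengths came from GENCODE 44 (GRCh38), joined by Ensembl gene ID. FRMD6-AS1 was not matched.

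Totals of 34741092 to 42041453 per library put a floor of 3 counts at 2.57 to 3.27 normalized counts, for counting error only. The members and lists were chosen with earlier results of these data known. Named were the 8 called members with the largest rise and the 8 with the largest fall, the 5 highest per kilobase, called ratios, members of the list of studied antisense RNAs, the 2 on each side of the count limit and any exosome gene called. Others were chosen after their values were seen. Libraries were not treated as paired by replicate number. The correlations of deviations were -0.208, -0.373 and 0.159, which show no pairing but cannot exclude one.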

Additional observations from a re-analysis of the deposited data

How the results depend on the processing

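Of the 10 called antisense transcripts, 7 were called under every alternative that gave a value, and SNHG12, THAP9-AS1 and THUMPD3-AS1 were not. Of 297 alternative values for named genes, 272 stayed on the same side of 0 and of the call, 15 turned sign, and calls ended in 8 and appeared in 2. Members called higher (6) were 3 of the 48 with a mean count of at least 500 and 1 of the 7 with no exon overlap. These are smaller sets of members, so the counts are not calls lost to processing. Members called lower (4) were 7 with at least 10 counts in every library, 0 with no exon overlap and 2 to 9 when single libraries were left out, with 2 without EV 1, 2 without EV 3 and 9 without HDAC8 1. The median over the members (0.052) was -0.031 over those with no exon overlap. It was -0.037 to 0.115 when single libraries were left out, the lowest without HDAC8 1. Sense partners called higher (2) were 1 with edgeR and 1 with limma-voom, and 1 to 2 when single libraries were left out. Exosome genes called were 1 to 2 higher and 0 to 1 lower when single libraries were left out, with 2 higher without HDAC8 1. All genes called lower (1143) ranged from 746 without EV 3 to 1378.

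Libraries were not treated as paired in the main fits. With a replicate block, 6 members rose and 5 fell, 1 sense partner rose and 0 ratios were called higher. The ratios called higher (1) were also 0 with a pseudocount of 0.5, 0 with at least 10 counts in every library, 0 in limma without a trend and 0 to 2 when single libraries were left out. The ratios called lower (0) were 2 with a pseudocount of 5 and 0 to 2 when single libraries were left out. Pairing by annotated overlap, added after the data were seen, gave 2 higher and 1 lower.

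None of the values that reversed belonged to a called gene. The log2 value of AC093484.3 became -0.117, -0.093 and -1.311 without EV 2, EV 3 and HDAC8 2. Leaving out single libraries moved it from -1.311 to 5.831, AC125611.3 from -0.151 to 0.525, AL021707.5 from -0.271 to 0.793, AL355075.4 from -0.610 to 0.434, ATP6V0E2-AS1 from -0.153 to 0.657, HOXA-AS2 from -0.044 to 0.308 and TTN-AS1 from -0.097 to 0.273. Without HDAC8 1, AC125611.3 was -0.151, AL355075.4 -0.610 and ATP6V0E2-AS1 -0.153. AL355075.4 was -0.010 with limma-voom, -0.044 with the block and -0.002 without EV 3. AL021707.5 was -0.635 with limma-voom, -0.333 with the block and -0.271 without HDAC8 3. HOXA-AS2 was -0.044 without HDAC8 2, and TTN-AS1 -0.097 and -0.035 without EV 2 and EV 3. The cause was not tested. With 3 libraries a group, a 95% interval lay within 2-fold for 49 of the 88 members that were not called, and the others could have changed 2-fold without a call.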

Other observations

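Of the list of studied antisense RNAs, those present under the count limit or with another biotype were measured too, and 2 were called. MITF-AS1 and AXL-AS1 were not among the deposited rows. Over all antisense rows under 300 counts 2.95% were called, and over all genes 11.0%. BDNF-AS, across from the gene of a neurotrophin, was at 395.3, 197.1 and 277.8 normalized counts in EV libraries and 57.3, 34.8 and 64.3 in HDAC8 libraries (log2 -2.48, SE 0.49, DESeq2 adjusted p = 1.64e-05). GNAS-AS1, from the imprinted GNAS locus, was at 23.1, 24.3 and 25.6 in EV libraries and 199.2, 73.7 and 159.0 in HDAC8 libraries (log2 2.57, SE 0.66, adjusted p = 0.00173). The groups did not overlap for either. OIP5-AS1, given the biotype processed transcript, averaged 9632 ± 956.9 in EV and 7134 ± 1933 in HDAC8 libraries (SD, n = 3, log2 -0.43, adjusted p = 0.115). EGFR-AS1 and LOXL1-AS1 were at 0 in all 6 libraries.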
